A study of Mus musculus with 6 samples.

Results

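Actin is encoded in the mouse by a family of 6 conventional genes, *Acta1*, *Acta2*, *Actb*, *Actc1*, *Actg1* and *Actg2*, and all 6 were found by their NCBI gene identifier among the 18191 genes measured in the aorta. The family was chosen by name, with its levels in these libraries already known, so that its levels and shares are described here without a test. Whole aortas of male mice gave 3 RNA libraries of wild type (WT) and 3 of *Npr1+/-* mice, which are heterozygous for a knockout of *Npr1* made by CRISPR-Cas9. The knockout mice were compared with WT to find genes that change in the aorta with loss of *Npr1*, which encodes natriuretic peptide receptor A. Age, strain and treatment are not given in the labels. The labels do not say that each library came from a separate mouse, so that p-values measure the spread between these libraries, which may be technical.

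Actin monomers assemble into the thin filaments on which myosin pulls in muscle and into the cortical and stress fibre filaments that shape other cells. The proteins of the family are nearly identical, and the genes are told apart mainly by where they are active. *Acta2* and *Actg2* encode the alpha and gamma smooth muscle actins. *Actb* and *Actg1* encode the beta and gamma cytoplasmic actins present in nearly all cells, and *Actc1* and *Acta1* encode the alpha actins of heart and skeletal muscle, which are also made early in the development of other muscles. In arteries *Acta2* is a standard marker of contractile smooth muscle cells.

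The genes resemble each other closely in their coding sequence, which bears on how well their reads can be told apart. The first 60 coding bases of GENCODE M21 transcripts are printed below, 5′ to 3′, for the muscle alpha actins and for the cytoplasmic pair, because these are the members whose levels are compared in what follows. Capitals mark the aligned bases that are not the same in every sequence of the set, 19 positions among the 3 muscle actins and 9 positions in the cytoplasmic pair.
Actc1: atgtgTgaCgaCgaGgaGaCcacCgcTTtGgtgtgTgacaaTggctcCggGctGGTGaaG
Acta1: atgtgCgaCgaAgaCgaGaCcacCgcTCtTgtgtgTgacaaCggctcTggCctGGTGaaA
Acta2: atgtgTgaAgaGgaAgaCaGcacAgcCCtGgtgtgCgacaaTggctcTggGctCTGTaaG
Actb: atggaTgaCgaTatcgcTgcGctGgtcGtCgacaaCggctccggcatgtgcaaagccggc
Actg1: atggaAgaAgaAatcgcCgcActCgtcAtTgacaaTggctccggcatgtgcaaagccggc
The coding sequence of *Actg2* is 1131 bases long against 1134 in the other muscle actins, so that *Actg2* is left out of the aligned starts above.

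Over the last 1110 coding bases, the cytoplasmic pair was the most alike, with 88.8% identical bases, followed by *Acta1* and *Actc1* with 86.1%. The lowest identity, 82.1%, was that of *Actg1* with *Acta2* and with *Actc1*. Few stretches were long enough to be shared without a mismatch. Of all windows of 50 bases along each transcript, 2.004% in *Acta1*, 0.352% in *Acta2*, 2.57% in *Actb* and 1.94% in *Actg1* recurred in another actin, and 0 windows did so in *Actc1* and *Actg2*. No actin shared a window of 100 bases with another actin, whereas 12.5% of the 50-base windows of *Actb* were found in any other gene, namely *Acta1*, *Actg1*, *Gm17087* and *Lrrc58*. The estimated counts divide a read between the genes it fits, and over all genes 35.3% of the counts above 0 were fractional. They were fractional in all 6 libraries for *Acta1*, *Acta2*, *Actb* and *Actg1*. For *Actc1* they were fractional in 3 libraries and never more than 0.07 from a whole number, and for *Actg2* in 4 libraries and never more than 0.04. The read length is not given in the sources used here, and levels of the 4 genes with shared stretches carry this uncertainty.

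The estimated counts summed to between 13510970 and 16664343 per library. Libraries numbered 1 stood apart in both genotypes. Summed over the 6 fat markers, the level was 2720 FPKM (fragments scaled by transcript length and library size) in WT 1 and 3414 in *Npr1+/-* 1, against 431 to 959 in the other libraries, with *Cidea* and *Ucp1* at the highest levels of the list. The 11 markers of neurons summed to 338 FPKM in *Npr1+/-* 1 and to between 68.0 and 82.3 in the other 5 libraries. Smooth muscle markers, 10 genes led by *Tagln* and *Myl9*, were present at a high level in every library, and summed to 7708 FPKM in WT 1 and 4312 in *Npr1+/-* 1 against 11081 to 12179 elsewhere. *Npr1* itself was measured at 112, 153 and 152 FPKM in the WT and at 70.35, 110 and 133 FPKM in the *Npr1+/-* libraries. These values overlap. In each of the 3 pairs of the same number, a pairing that the labels do not state, the *Npr1+/-* library was the lower one. The log2 fold change was -0.41 (SE 0.27) in edgeR's quasi-likelihood fit, with an adjusted p of 0.999, and -0.44 (SE 0.15) when the pairs were kept as a block, where the adjusted p was 0.311 in edgeR and 0.0738 in DESeq2.

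The smooth muscle actin *Acta2* was the leading actin of the aorta. The 6 genes together took 1.36%, 2.23% and 2.27% of all counts in the WT libraries and 0.926%, 2.17% and 2.29% in the *Npr1+/-* libraries. *Acta2* alone had the most counts of all genes in 5 of the libraries and ranked 3 in *Npr1+/-* 1. Per length, in FPKM, it ranked 1 in the 4 libraries numbered 2 and 3, 8 in WT 1 and 13 in *Npr1+/-* 1. When the FPKM of the 6 genes were summed in each library, *Acta2* made up 63.7% on average over the libraries, *Actb* 23.0%, *Actg1* 11.2%, *Actg2* 1.98%, *Actc1* 0.124% and *Acta1* 0.0243%. The means of the last pair rest on *Npr1+/-* 1, without which they were 0.0551% for *Actc1* and 0.0136% for *Acta1*, and they join unlike genotypes, with 0.0235% in WT and 0.224% in *Npr1+/-* aortas for *Actc1* and 0.00849% and 0.0400% for *Acta1*.

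The order of the FPKM levels, *Acta2*, *Actb*, *Actg1*, *Actg2*, *Actc1* and *Acta1*, was the same in 6 of 6 libraries. *Acta2* exceeded *Actb* by between 1.89 and 3.74 times within a library, *Actb* exceeded *Actg1* by 1.82 to 2.42 times, and *Actg1* exceeded *Actg2* by 4.89 to 7.40 times. Across libraries, the lowest *Acta2* level, 2202 FPKM, still lay above the highest *Actb* level, 2104 FPKM, and the other neighbours down to *Actc1* were likewise separate. The levels of *Actc1* and *Acta1* were not separate, since *Actc1* was at 0.75 FPKM in WT 3 and *Acta1* at 3.19 FPKM in *Npr1+/-* 1, and also overlapped among the WT libraries. Within a library *Actc1* was 1.70 to 8.97 times as high as *Acta1*.

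**Figure D1:**
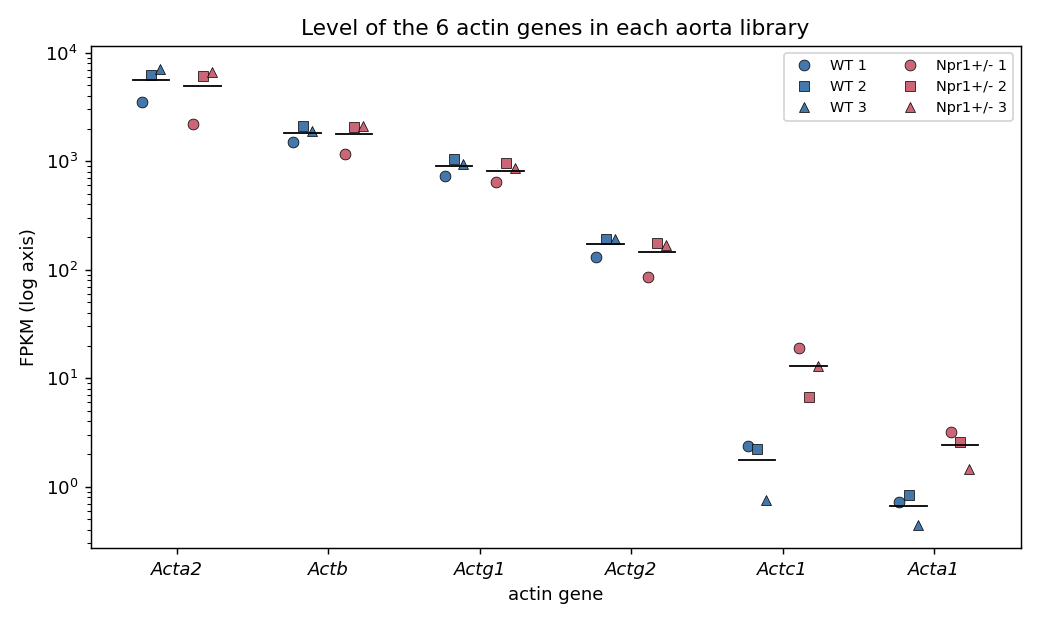
FPKM of each actin gene on a log axis, with a point for each library (blue WT, red *Npr1+/-*, the shape giving the library number) and a line at the mean of each genotype. The 4 genes of higher level have overlapping genotypes and their lowest points in the libraries numbered 1, whereas all *Npr1+/-* points of *Actc1* and *Acta1* lie above all WT points.

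*Acta2* (gene 11475, chr19:34241090-34255590 on GRCm38, minus strand, 9 exons) was measured at 3532, 6258 and 7113 FPKM in the WT and at 2202, 6124 and 6588 FPKM in the *Npr1+/-* libraries. In both genotypes the library numbered 1 was the lowest, and the genotypes overlapped. The mean was 5634 ± 1870 FPKM (SD, n = 3) in WT and 4971 ± 2409 FPKM (SD, n = 3) in *Npr1+/-* aortas. The log2 fold change of *Npr1+/-* over WT was -0.14 (SE 0.57), with a 95% confidence interval from -1.51 to 1.23 and an adjusted p of 0.999 in edgeR's quasi-likelihood test. The interval spans a ratio of 0.351 to 2.34, so that sizeable differences in either direction were within the error. Without *Npr1+/-* 1 the log2 fold change was 0.19, and without both libraries numbered 1 it was -0.04 (SE 0.15). In whole aortas, fewer smooth muscle cells and less RNA per cell cannot be told apart.

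*Actg2* (gene 11468, chr6:83512905-83536265, minus strand, 9 exons), the smooth muscle gamma actin best known from the gut, was far below *Acta2*. It was measured at 132, 194 and 192 FPKM in the WT and at 86.3, 177 and 171 FPKM in the *Npr1+/-* libraries. The genotypes overlapped, and the lowest value of each was again in the library numbered 1. *Acta2* was 25.5 to 38.6 times as high within a library, with the lowest ratios in WT 1 and *Npr1+/-* 1, so that *Acta2* was lower there relative to *Actg2* as well. The log2 fold change of *Actg2* was -0.25 (SE 0.31), with an interval from -0.98 to 0.48 and an adjusted p of 0.999.

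*Actb* (gene 11461, chr5:142903115-142906754, minus strand, 6 exons) was the more abundant cytoplasmic actin. Its level was 1495, 2104 and 1900 FPKM in the WT and 1166, 2063 and 2091 FPKM in the *Npr1+/-* libraries. The mean was 1833 ± 310 FPKM (SD, n = 3) in WT and 1773 ± 526 FPKM (SD, n = 3) in *Npr1+/-* aortas, with overlapping libraries. The log2 fold change was -0.04 (SE 0.35), with an interval from -0.88 to 0.79, and it was 0.16 without *Npr1+/-* 1.

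*Actg1* (gene 11465, chr11:120345690-120348542, minus strand, 6 exons) also had the lowest value of each genotype in the library numbered 1. It was measured at 733, 1053 and 938 FPKM in the WT and at 639, 954 and 865 FPKM in the *Npr1+/-* libraries. Its log2 fold change was -0.14 (SE 0.28), with an interval from -0.81 to 0.53, and the adjusted p of both cytoplasmic actins was 0.999. The ratio of *Actb* to *Actg1* was 2.04, 1.998 and 2.03 in the WT and 1.82, 2.16 and 2.42 in the *Npr1+/-* libraries. The WT ratios thus lay close together and within the range of the *Npr1+/-* ratios.

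The balance between smooth muscle and cytoplasmic actins moved with the library number. *Acta2* and *Actg2* together made up 62.2%, 67.1% and 72.0% of the actin FPKM in the WT libraries and 55.6%, 67.6% and 69.5% in the *Npr1+/-* libraries. The cytoplasmic pair filled nearly all of the rest, from 28.0% in WT 3 to 43.9% in *Npr1+/-* 1. The smooth muscle share was lowest in the 2 libraries with high fat markers, and the part of fat or nerve tissue in these shares was not tested.

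**Figure D2:**
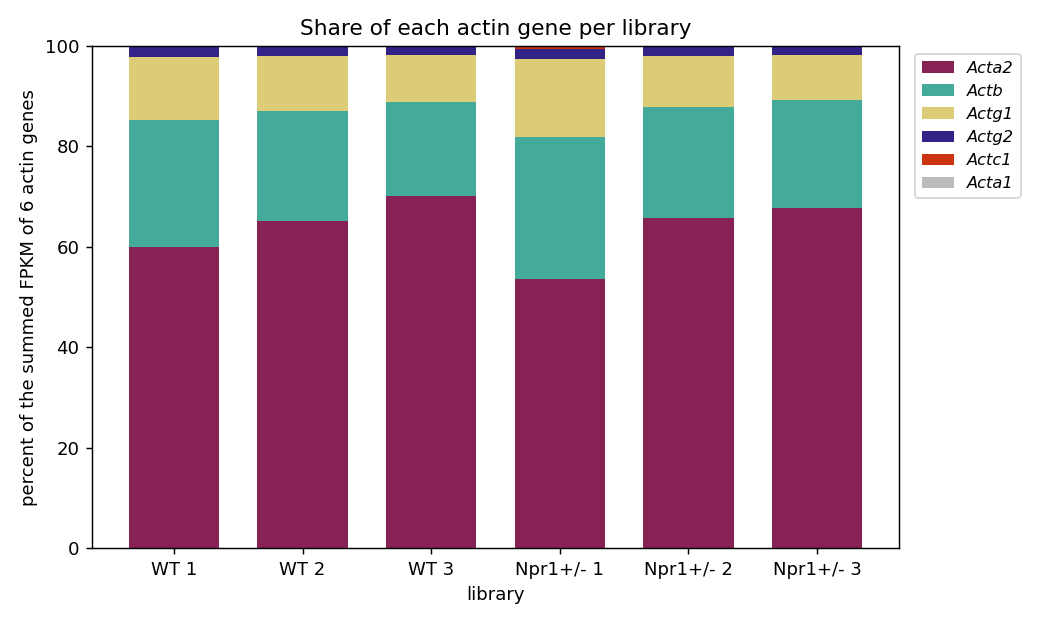
Share of each actin gene in the summed FPKM of the 6 genes, in percent, with a stacked bar for each library. *Acta2* takes between 53.5% (*Npr1+/-* 1) and 70.1% (WT 3), and the striated muscle actins are barely visible at the top of the *Npr1+/-* 1 bar.

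*Actc1* (gene 11464, chr2:114047282-114053548, minus strand, 7 exons), the cardiac muscle actin, was the member that differed most between the genotypes. Its level was 2.35, 2.22 and 0.75 FPKM in the WT and 19.2, 6.66 and 13.0 FPKM in the *Npr1+/-* libraries. These values came from 46.0, 51.0 and 18.0 estimated counts in WT and from 402, 154 and 289 estimated counts in *Npr1+/-* aortas, so that no library was near the limit of detection of 3 counts. Each *Npr1+/-* library was higher than each WT library, and within the pairs of libraries of the same number the FPKM ratio was 8.16, 3.00 and 17.3.

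The mean of *Actc1* was 1.77 ± 0.889 FPKM (SD, n = 3) in WT and 12.9 ± 6.26 FPKM (SD, n = 3) in *Npr1+/-* aortas. The log2 fold change was 2.90 (SE 0.54), which is 7.46-fold with a 95% confidence interval from 3.04-fold to 18.3-fold. In edgeR's quasi-likelihood test its unadjusted p was 0.00125, rank 7 of the 13938 genes tested, and its adjusted p was 0.999. No actin passed the thresholds there, a change of 0.5 or more on the log2 scale in either direction with an adjusted p under 0.05, and neither did any other gene (0.0% of those tested), while 412 genes (2.96%) had an unadjusted p under 0.05. With DESeq2, *Actc1* passed with an adjusted p of 0.000559 as 1 of 16 genes called among 16979 (0.0942%). Of the genes tested there, 0.0883% were called higher and 0.00589% lower in *Npr1+/-* aortas. The family was chosen with these values known, so that the call of *Actc1* is not independent support. With DESeq2 and the replicate number as a block, 1.81% of the genes were called, 1.2% as higher, and *Actc1* was again the only actin among them. In edgeR with this block its adjusted p was 0.0743. It remained higher in *Npr1+/-* aortas without *Npr1+/-* 1 (log2 fold change 2.45) and without both libraries numbered 1 (2.72).

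*Acta1* (gene 11459, chr8:123891769-123894751, minus strand, 7 exons), the skeletal muscle actin, was the least abundant actin. It was measured at 0.73, 0.84 and 0.44 FPKM in the WT and at 3.19, 2.58 and 1.45 FPKM in the *Npr1+/-* libraries, from 10.6 to 19.6 and from 32.6 to 67.8 estimated counts. As with *Actc1*, no *Npr1+/-* library was as low as any WT library. Genes whose *Npr1+/-* libraries all lay above the WT libraries were 3.9% of those tested, and genes with all of them below were 3.58%, against 2 and 0 of the 6 actins, which were chosen with these values known.

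The log2 fold change of *Acta1* was 1.83 (SE 0.43), or 3.55-fold with an interval from 1.75-fold to 7.21-fold. Its unadjusted p was 0.00411 in edgeR's quasi-likelihood test, rank 30, and its adjusted p was 0.999. The adjusted p was 0.165 with DESeq2 and 0.133 in edgeR with the replicate block. Without *Npr1+/-* 1 the log2 fold change was 1.54. *Acta1* shares short stretches with the far more abundant *Actb* and *Actg1*, whose log2 fold changes were -0.04 and -0.14. The part of shared reads in the level of *Acta1* was not tested.

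Together the striated muscle actins made up 0.0522%, 0.0318% and 0.0117% of the actin FPKM in the WT libraries and 0.543%, 0.0991% and 0.149% in the *Npr1+/-* libraries. The highest share was in *Npr1+/-* 1, where the level of both genes was also the highest and the summed FPKM of the 6 genes, 4116, was the lowest.

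**Figure D3:**
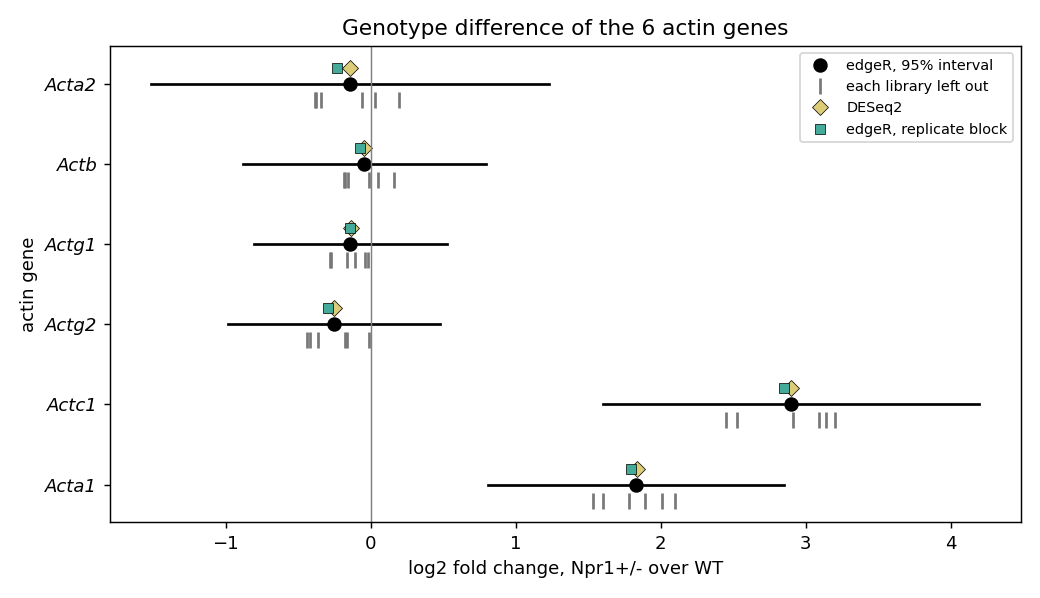
Log2 fold change of *Npr1+/-* over WT for each actin gene from edgeR (black point, bar the 95% confidence interval), from DESeq2 (diamond), from edgeR with the replicate block (square) and from edgeR after leaving out single libraries (grey ticks). The intervals of *Actc1* (1.60 to 4.20) and *Acta1* (0.81 to 2.85) lie above 0 and those of the other 4 genes span it.

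The summed markers of striated muscle overlapped between the genotypes, unlike *Actc1* and *Acta1*. Of 13 heart muscle markers 12 were in the table, and their summed level was 28.4 to 38.0 FPKM in WT and 26.2 to 34.4 FPKM in *Npr1+/-* aortas. The lowest sum was in *Npr1+/-* 1, the library with the most *Actc1*, but the genes of the list were mixed there. *Tnnt2*, *Tnni3*, *Actn2* and *Ryr2* had their lowest level in that library. *Myl7* (3.56 FPKM), *Myl3* (1.18 FPKM), *Myh6* and *Mybpc3* had their highest level in it. *Tnnt2* and *Actn2*, a troponin and an alpha-actinin of the heart, had the highest levels of the list. The heavy chain *Myh7* was at most at 0.08 FPKM and *Mybpc3* at most at 0.13 FPKM, *Myh6* was between 0.03 and 0.99 FPKM, and 2 of the 8 heart markers tested had a positive log2 fold change.

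The 13 skeletal muscle markers summed to 14.35 to 32.8 FPKM in WT and to 17.8 to 37.8 FPKM in *Npr1+/-* aortas, so that the genotypes overlapped. *Myl1*, a myosin light chain, made up most of the sum in the libraries numbered 1 (26.85 and 33.0 FPKM). The fast myosin heavy chains *Myh1*, *Myh2* and *Myh4* were never above 0.08 FPKM. *Ckm*, the muscle creatine kinase, was at 1.84, 2.84 and 3.73 FPKM in WT and at 1.33, 1.79 and 1.63 FPKM in *Npr1+/-* aortas. Of the 6 skeletal muscle markers tested, 4 had a positive log2 fold change, as *Acta1* did, with a median of 0.32, and *Ckm* was among those with a negative one.

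The summed markers of the endothelium were higher in *Npr1+/-* aortas, in the direction of the striated actins. The 8 genes summed to 200, 137 and 220 FPKM in the WT and to 365, 271 and 261 FPKM in the *Npr1+/-* libraries, which do not overlap, and all 8 had a positive log2 fold change, as did 51.6% of all genes tested. *Pecam1* and *Cdh5*, adhesion proteins of endothelial cells, had the highest levels of the list. In 4 of the 8 genes each *Npr1+/-* library was above each WT library, against 3.9% of all genes tested. *Cdh5* overlapped, at 31.3, 16.3 and 26.7 FPKM in the WT and at 57.0, 29.6 and 24.9 FPKM in the *Npr1+/-* libraries. An unadjusted p under 0.05 in edgeR's quasi-likelihood test was found for 4 of the 8 genes, against 2.96% of all genes. *Nos3*, the endothelial nitric oxide synthase, was the 1 marker called by DESeq2. The 6 fat markers also all had a positive log2 fold change, with a median of 0.66. None of them had an unadjusted p under 0.05 in edgeR's quasi-likelihood test, and their sums overlapped between the genotypes. Within each pair of libraries of the same number the sum was higher in *Npr1+/-* than in WT (3414 against 2720, 959 against 431 and 889 against 586 FPKM). The summed fibroblast and leukocyte markers overlapped between the genotypes. Of the fibroblast genes *Dcn* overlapped, whereas *Col1a2* was lower in each *Npr1+/-* library (136, 269 and 266 FPKM) than in any WT library (274, 379 and 299 FPKM), as was *Col1a1*, and 1 of 7 had a positive log2 fold change. The leukocyte list was led by *Lyz2* and *Csf1r*. Of the neuronal markers, *Uchl1* was at 61.9 to 98.9 FPKM in every library, *Dbh* was at 56.15 FPKM in *Npr1+/-* 1 and at most at 0.25 FPKM elsewhere, and *Stmn2* was higher in each *Npr1+/-* library (32.4, 4.88 and 4.16 FPKM) than in any WT library (2.29 to 2.76 FPKM). The part of endothelium, fat, nerve or connective tissue in the levels of *Actc1* and *Acta1* was not tested.

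**Figure D4:**
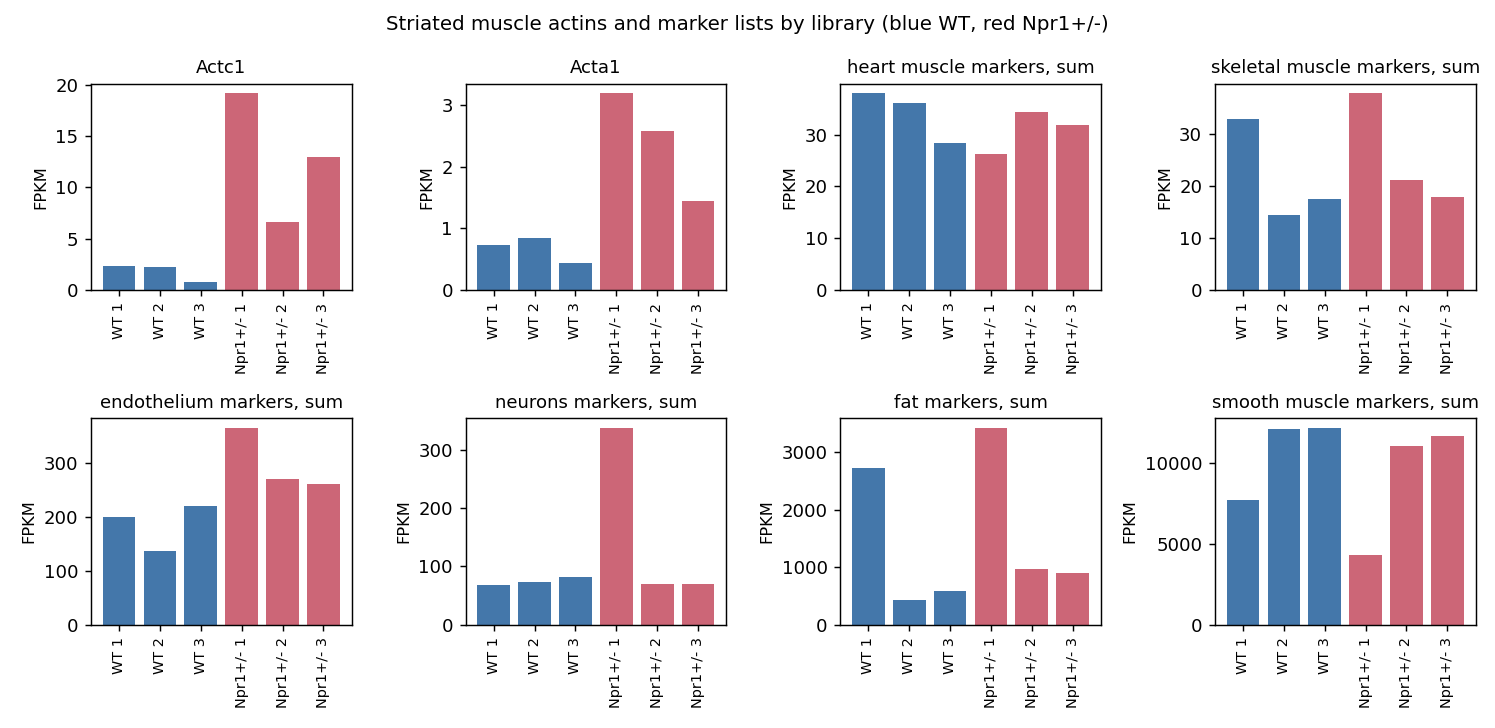
FPKM of *Actc1*, of *Acta1* and of the summed markers of 6 cell types in each library (blue WT, red *Npr1+/-*), each panel with its own axis from 0. *Actc1*, *Acta1* and the endothelial sum are higher in every *Npr1+/-* library than in any WT library, and the other 5 sums overlap between the genotypes.

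The spread over the 6 libraries differed between the members. It was taken over both genotypes together, so that the genotype difference of *Actc1* and *Acta1* is part of it. The SD of log2 CPM (counts scaled to the library size, with TMM factors) over the 6 libraries was 0.26 for *Actg1*, 0.33 for *Actb*, 0.44 for *Actg2*, 0.64 for *Acta2*, 1.02 for *Acta1* and 1.72 for *Actc1*, against a median of 0.28 over all genes tested. *Actb* is widely used as a reference gene, and in these aortas its highest library was 1.73 times its lowest. Of 15 other genes in use as references, 10 had a smaller SD than *Actb*. *Ppia* (0.06) and *Eef1a1* (0.10) varied least, and *Pgk1* (0.68) and *Sdha* (0.90) most.

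**Figure D5:**
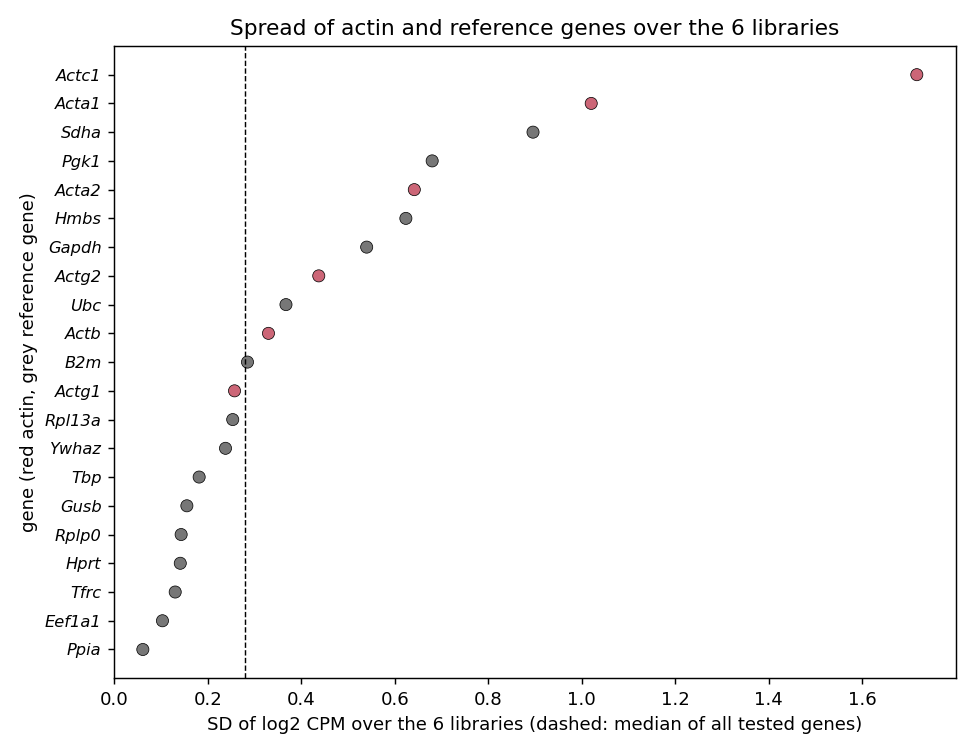
SD of log2 CPM over the 6 libraries for the actin genes (red) and 15 reference genes (grey), with the median of all genes tested as a dashed line at 0.28. *Actg1* lies just below the median and the other actins above it. *Actc1* has the highest SD of all genes shown, and its difference between the genotypes is part of that SD.

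*Acta2*, *Actb*, *Actg1* and *Actg2* were nearer in pattern to each other than to *Actc1* and *Acta1*, which differed by less from each other. Likeness was taken as the root-mean-square difference of the log2 CPM after subtraction of each gene's own mean, so that 0 means the same pattern over the 6 libraries. The difference was 0.12 between *Actb* and *Actg1*, 0.14 between *Actb* and *Actg2* and 0.82 between *Actc1* and *Acta1*. *Acta2* differed by 0.21 from *Actg2*, by 0.29 from *Actb* and by 0.38 from *Actg1*. The last 2 are large beside the deviations of *Actb* (0.30) and *Actg1* (0.23) from their own means, as a root mean square. Between *Actc1* or *Acta1* and the other 4 genes it was between 1.05 and 1.91. These points share their library and its depth, and the differences are given without a test.

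Among all genes tested, the patterns most like that of *Acta2* belonged to *Gm13889* (0.06), *Ramp1* (0.07), which encodes a subunit of the receptor for calcitonin gene-related peptide, and *Scx* (0.07), a transcription factor of tendon. *Rras* (0.03), *Esyt2* (0.03) and *Hacd1* (0.04) were the most like *Actb*. *1810013L24Rik* (0.03), *Kdm5b* (0.03) and *Clic1* (0.04) were the most like *Actg1*. For *Actg2* they were *Zfp568* (0.03), *Zyx* (0.03), which encodes zyxin of focal adhesions, and *Gnb4* (0.04). The nearest genes of the striated actins differed more, although the measure grows with the size of a gene's own deviations. That size, as a root mean square, was 0.93 for *Acta1*, 1.57 for *Actc1* and 0.23 to 0.59 for the other actins. The genes nearest to the striated actins were *Vwce* (0.15), *Ak5* (0.29) and *Plcb2* (0.29) for *Acta1* and *Lhx6* (0.58), *Inpp4b* (0.61) and *Sostdc1* (0.62) for *Actc1*. The highest level of any of these 6 genes was 4.23 FPKM, that of *Lhx6* in *Npr1+/-* 1.

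Actin genes are known targets of serum response factor, which binds the CArG box and is driven in muscle by the coactivator myocardin and in many cells by the actin-sensing MRTFs. The promoter windows of 4 actins were found in RefSeq (GRCm38.p6), and the 250 bases before each start were searched for the CArG box on both strands, on which it reads alike. It was present once each in *Acta1*, *Actc1* and *Actg1*. Of all 32851 windows, 1.47% held it. The stretches around these matches are printed on the minus strand of the genes, with the match in capitals, to show the match of each gene, which differs in its letters from those of the other genes.
Acta1, chr8:123894829-123894858: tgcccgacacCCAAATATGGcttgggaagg
Actc1, chr2:114052903-114052932: gctaaggcgaCCAAATAAGGcaaggtggca
Actg1, chr11:120348566-120348595: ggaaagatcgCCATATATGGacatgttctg
The match lay 64 to 73 bases before the start in *Acta1*, 38 to 47 bases before it in *Actc1*, within an intron of the longer GENCODE gene model, and 81 to 90 bases before it in *Actg1*. The window of *Acta2*, chr19:34255374-34255623, held no match, which says only that these letters were not in this window. Most of it lay within the GENCODE gene model of *Acta2*, which ends at 34255590, and the bases before that model were not searched further. A match is not a measured binding site. Of the genes that hold it, *Acta1* and *Actc1* were higher in each *Npr1+/-* library than in any WT library, and *Actg1* overlapped between the genotypes. The part of the CArG box in these levels was not tested.

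*Srf*, which encodes serum response factor, and the coactivator genes *Myocd* and *Mrtfa* had the lowest level of each genotype in the library numbered 1, as *Acta2* did. *Myocd*, which encodes myocardin, was measured at 23.9, 60.1 and 47.5 FPKM in the WT and at 17.3, 54.5 and 42.4 FPKM in the *Npr1+/-* libraries. *Srf* was at 27.9, 40.4 and 42.8 FPKM in the WT and at 23.9, 37.0 and 34.7 FPKM in the *Npr1+/-* libraries, and *Mrtfa* was at 12.04, 16.4 and 15.5 FPKM and at 8.65, 14.6 and 13.8 FPKM. Each of these genes overlapped between the genotypes, and the 4 genes of the list had a median log2 fold change of -0.21 against 0.01 over all genes tested. *Mrtfb*, the fourth gene, was at 5.64, 5.74 and 6.72 FPKM in the WT and at 6.41, 6.22 and 7.03 FPKM in the *Npr1+/-* libraries, with a log2 fold change of 0.13 (SE 0.14), and none of the 4 genes was called.

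The genes that fold actin, hold its monomers and build, cut and coat its filaments showed no call either. With the factors above, actin-related proteins and reference genes they formed 8 lists of 108 genes, of which 97 were tested. None of these was called by edgeR's quasi-likelihood test, by edgeR with the replicate block or by DESeq2, and none had an unadjusted p under 0.05 in edgeR. The median log2 fold change of a list lay between -0.21 and 0.08.

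Of the folding machinery, with prefoldin and the CCT chaperonin, 13 of 17 genes had a positive log2 fold change (51.6% of all genes tested did), with a median of 0.08, and none passed the test. *Tcp1*, a CCT subunit, was at 91.9, 97.5 and 99.2 FPKM in the WT and at 84.4, 115 and 110 FPKM in the *Npr1+/-* libraries. *Pfdn5*, a prefoldin subunit, had the highest level of the list, 150 to 282 FPKM over the libraries. *Cct3*, which had the lowest unadjusted p of the list, had a log2 fold change of 0.23 (SE 0.17).

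Proteins that bind monomers or cut filaments had a median log2 fold change of -0.02 over 14 genes. *Tmsb4x*, which encodes the monomer-holding thymosin beta 4, was at 3834, 4802 and 3979 FPKM in the WT and at 2386, 4824 and 5114 FPKM in the *Npr1+/-* libraries. *Dstn*, which encodes the severing protein destrin, was at 1008, 1564 and 1663 FPKM and at 546, 1430 and 1495 FPKM. Both overlapped between the genotypes and had their lowest value in *Npr1+/-* 1. *Pfn2*, a profilin, was at 7.76, 10.6 and 10.2 FPKM in WT and at 13.25, 10.7 and 11.1 FPKM in *Npr1+/-* aortas, without overlap but with a log2 fold change of 0.30 (SE 0.18).

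Among the nucleators of filaments, the 10 subunits of the Arp2/3 complex had a median log2 fold change of 0.06, and the 12 formins tested a median of -0.06. *Arpc2* was at 169 to 307 FPKM and *Arpc1b* at 119 to 174 FPKM over the libraries, while the leading formins *Fmnl3* and *Diaph1* were between 15.0 and 32.4 FPKM. *Arpc5l* had a log2 fold change of 0.13 (SE 0.11) and *Fmn1* of -0.57 (SE 0.30), the lowest unadjusted p of either list.

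Proteins along the filament had a median log2 fold change of -0.12 over 18 genes, 5 of them positive. *Tagln*, which encodes the smooth muscle protein transgelin, was at 2771, 4186 and 4144 FPKM in the WT and at 1456, 4024 and 4106 FPKM in the *Npr1+/-* libraries, and was lowest in the library numbered 1 of each genotype, as *Acta2* was. *Flna*, which encodes the cross-linker filamin A, was at 806, 1297 and 1288 FPKM and at 461, 983 and 1160 FPKM. *Tagln3*, a neuronal relative of transgelin, had a log2 fold change of 1.71 (SE 0.90), which came from 4.88 FPKM in *Npr1+/-* 1 against 0.40 to 1.09 FPKM elsewhere, the library with the high markers of neurons.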

How the data were processed

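SOAPnuke, Bowtie2 against coding genes and RSEM were used by the authors to filter, align and quantify the reads, and the processing notes name mm10 and DESeq2 1.4.5. The deposited values are estimated counts, not normalized, and FPKM, which the authors scaled by transcript length and library size, for 18191 genes in 6 libraries. The *Npr1+/-* columns are headed as knockdown and were matched to the samples by genotype and number. The 4 columns of group means were not used. Read length and strandedness are not given in the sources used here.

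Counts were rounded and fitted with edgeR 4.0.16 (TMM, filter with a minimum count of 10, quasi-likelihood test, R 4.3.3), with Benjamini-Hochberg adjustment over 13938 genes, among them all 6 actins. A call required a change of 0.5 or more on the log2 scale and an adjusted p under 0.05. The script was tested on simulated data. A limit of 3 counts corresponds to 0.180 to 0.222 CPM and covers counting error only. Deviations from the group means correlated at 0.64, 0.39 and 0.24 between the libraries numbered 1, 2 and 3. Between libraries of unlike number the correlation was -0.58 to 0.445, so that only number 1 stood above all of these. The numbers were still taken to pair the libraries, although the labels do not say what they share. DESeq2 1.42.0, its size factors, no filter, limma 3.58.1 on log2(FPKM + 0.1) and log2(FPKM + 1), a replicate block and leaving out each library were tried. DESeq2 with the block and leaving out both libraries numbered 1 were added after seeing the data. Named genes were the actins, *Npr1*, the 2 of highest level in each list, the lowest unadjusted p of each pathway list and the 3 genes most like each actin. *Ckm*, the fast and cardiac myosin heavy chains, *Mybpc3*, *Myl3*, *Myl7*, *Tnni3*, *Ryr2*, *Stmn2*, *Col1a1*, *Nos3* and *Mrtfb* were picked with their values in view. Members and lists were chosen with earlier results of these data known. Promoters come from RefSeq (GRCm38.p6), gene models from GENCODE M21.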

Additional observations from a re-analysis of the deposited data

How the results depend on the processing

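The log2 fold changes of *Actc1* and *Acta1* kept their direction under all 14 alternatives, from 2.28 to 3.21 and from 1.00 to 2.10. The call did not hold across tools. DESeq2 gave 2.90 for *Actc1* and called 1 actin among 16 genes, and DESeq2 with the replicate block gave 2.89 (adjusted p = 6.14e-09) and called 1 actin among 265 genes (1.81% of those it tested). In edgeR the replicate block gave 2.85 for *Actc1* and 0 calls, with a smallest adjusted p of 0.0664 over all genes, and changed no other call. Leaving out both libraries numbered 1 gave 1 call among all genes and no actin, and leaving out 1 library gave 0 calls each time.

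When a single library was left out, log2 fold changes were from 2.45 to 3.21 for *Actc1*, from 1.54 to 2.10 for *Acta1*, from -0.38 to 0.19 for *Acta2*, from -0.18 to 0.16 for *Actb*, from -0.28 to -0.02 for *Actg1* and from -0.44 to -0.01 for *Actg2*. *Acta2* turned positive without WT 3 (0.03) and without *Npr1+/-* 1 (0.19). *Actb* did so without WT 2 (0.05), without *Npr1+/-* 1 (0.16) and without both libraries numbered 1 (0.039). As shares of estimated counts, which are not scaled by length, *Acta2* made up 70.3% of the actins, *Actb* 19.2% and *Actg2* 1.12%. With a single library left out, the FPKM share ranged from 62.4% to 65.7% for *Acta2*, from 21.9% to 23.8% for *Actb*, from 0.0551% to 0.147% for *Actc1* and from 0.0136% to 0.0282% for *Acta1*, the lowest of both without *Npr1+/-* 1. As shares of counts they were 0.0786% and 0.0156%. The cause of the changes was not tested. With 3 libraries of each genotype, the interval of *Acta2* ran from 0.351 to 2.34 times, which is not a limit of detection. In the same edgeR fit the 7.46-fold difference of *Actc1* was not called.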

Other observations

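The actin-related and actin-like proteins share the actin fold. Their 13 measured genes summed to 170, 168 and 170 FPKM in the WT and to 171, 160 and 168 FPKM in the *Npr1+/-* libraries. *Actr1a*, a subunit of the dynactin complex, was at 59.9, 58.4 and 59.2 FPKM and at 64.5, 56.4 and 62.8 FPKM. Its relative *Actr1b* was at 50.05, 51.5 and 53.0 FPKM in WT and at 45.9, 47.7 and 48.7 FPKM in *Npr1+/-* aortas, where each library was lower than each WT library, with a log2 fold change of -0.11 (SE 0.11). Of the 7 genes of this list that were tested, 4 had a positive log2 fold change, the median was 0.01 and none was called by edgeR or DESeq2.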
